A study of Mus musculus with 12 samples.

Results

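The comparison of selenium-deficient with selenium-adequate proerythroblasts was described across all measured genes, with weight on transcription factors, gene families and pathways. Its members were chosen by title: 3 arrays of proerythroblasts from mice on the deficient diet and 3 from mice on the adequate diet, 6 of the 12 arrays of the series. All mice were male and were kept on 1 of the 2 diets for 3 months before they received phenylhydrazine, a drug that destroys circulating red cells. Cells were sorted from the spleen on day 3 after the drug. The groups were therefore deficient proerythroblasts and adequate proerythroblasts, all treated with phenylhydrazine, and the other 6 arrays held deficient and adequate basophilic erythroblasts, the next stage of the same lineage. The labels give no strain, age, untreated group or sort markers for the cells. Whether the replicates came from separate animals or from pools is not stated, so the p-values measure only the spread between these arrays. Total RNA (5 ng per sample) was labelled with biotin and hybridised to whole-transcript arrays, and all values are the deposited log2 expression values. A difference of 1 on this scale is a doubling.

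Selenium is built into selenoproteins as selenocysteine, and many of these proteins reduce peroxides or maintain thiols. Proerythroblasts are the earliest recognisable red cell precursors. They depend on stem cell factor and erythropoietin, divide a few times, and then give up the progenitor programme as they fill with haemoglobin, lose their organelles and expel the nucleus. After acute loss of red cells the mouse spleen becomes a major site of this process.

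The labels were first set against marker genes. The erythroid genes Gata1, Klf1 and Epor lay high on all 6 proerythroblast arrays, with Gata1 at 8.72, 8.53 and 8.66 on the deficient arrays, against 8.67, 8.66 and 8.36 on the adequate arrays. Selenow, a small selenoprotein whose transcript is known to follow selenium supply, read 8.45, 7.97 and 8.47 in deficient cells, against 9.65, 9.62 and 9.48 in adequate cells. It fell by 1.29 (SE 0.16, adjusted p = 0.00129, limma). Transcripts of other blood cells were present on every array, and the summed macrophage, neutrophil and B cell markers were highest on adequate replicate 3. The log2 of the summed macrophage markers ranged from 9.76 to 10.55 on the deficient arrays, against 9.53 to 10.73 on the adequate arrays. For neutrophil markers the ranges were 11.42 to 12.48 and 10.95 to 12.66, and for B cell markers 9.89 to 10.48 and 9.73 to 10.95. For eosinophil markers they were 8.10 to 9.71 and 9.13 to 11.25, with a median difference of -1.07 over the 2 that were tested. The megakaryocyte markers reached their highest sum on a deficient array, with 9.37 to 9.71 on the deficient arrays, against 9.43 to 9.50 on the adequate arrays. Among the neutrophil genes, Mmp8 read 6.32, 4.73 and 6.74 in deficient cells, against 4.46, 4.19 and 4.65 in adequate cells, and Csf3r and Cxcr2 were also highest on a deficient array. Elane (-0.41), Mpo (-0.27), Ltf (-0.26) and Prtn3 (-0.13) had differences of the other sign. None of 12 macrophage, 2 eosinophil, 4 mast cell and basophilic granulocyte, 7 B cell, 8 T and NK cell and 6 stromal markers passed the limma test, and 2 eosinophil and 1 B cell marker had an unadjusted p under 0.05. When the replicate number was added to the fit as a block within each stage, 2 eosinophil markers fell and 3 neutrophil markers rose. In that fit 7.05% of all genes fell and 4.04% rose. Of 15 neutrophil markers, Mmp9 rose (0.57, adjusted p = 0.0373) and the other 14 did not pass, with a median of 0.41 over the list. Of 7 megakaryocyte markers, Itga2b rose (0.75, adjusted p = 0.0324). In this fit, without the block, 1.27% of all genes rose and 2.76% fell. Of the erythroid markers, Sptb (1.03), Nfe2 (1.21) and Tfrc (0.97) rose and Kit fell. Leaving out 1 array ended the calls of Mmp9 (adjusted p up to 0.184, without adequate replicate 2), of Itga2b (0.137, without deficient replicate 3), and of Nfe2 (0.0964) and Tfrc (0.146), both without deficient replicate 3. The part of these cell types in the results was not tested. Over all features except controls, the deficient proerythroblast arrays correlated with adequate basophilic replicate 1 at 0.975, 0.964 and 0.972. The adequate proerythroblast arrays did so at 0.964, 0.963 and 0.963. Whether the deficient and adequate sorts differed in the maturity of their cells was not tested.

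The deficient diet was accompanied by more decreases than increases. Of 20128 genes tested, 810 passed an adjusted p of 0.05 (4.02%), of which 255 rose (1.27%) and 555 fell (2.76%) in deficient proerythroblasts. The median increase among genes that rose was 0.97 and the median decrease among those that fell was -0.83. Over all genes tested the median difference was 0.017, with 10835 positive and 9229 negative differences. The fit used the spread over all 12 arrays, and for each of the 810 genes the 3 deficient arrays lay wholly above or wholly below the 3 adequate arrays. That separation alone held for 6258 genes (31.1%), which were split almost evenly, 3112 higher (15.5%) and 3146 lower (15.6%). With the replicate number as a block within each stage, 2233 genes passed, 814 higher and 1419 lower, and all 810 were among them. With the 6 proerythroblast arrays alone, 2416 genes passed, 1101 higher and 1315 lower, among them 802 of the 810.

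Leaving out single arrays moved these counts. Between 314 genes (without adequate proerythroblast replicate 1) and 638 (without deficient proerythroblast replicate 1) passed when a proerythroblast array was left out. The count was 341 without adequate replicate 2, 563 without adequate replicate 3, 454 without deficient replicate 2 and 323 without deficient replicate 3. Replicate 2 of both basophilic groups stood apart, with a median background signal of 4.70 on the deficient and 4.19 on the adequate array, against 3.31 to 3.53 on the proerythroblast arrays. Without both of them 3288 genes passed, 1402 higher and 1886 lower, and without the deficient one alone 1806 passed. After median centring 909 passed, 156 higher and 753 lower, so the share of increases was 17.2% there and 31.5% in the values as deposited. For 273 of the 810 genes the call held whichever array was left out.

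**Figure D1:**
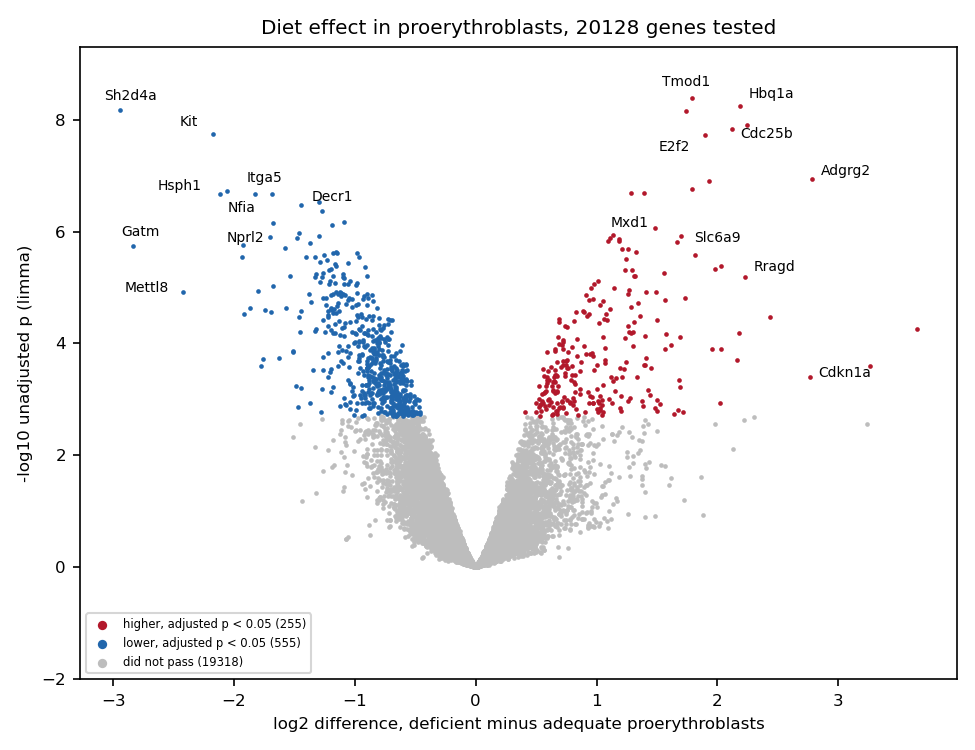
Each point is 1 of the 20128 genes tested, with the log2 difference of deficient minus adequate proerythroblasts on the horizontal axis and -log10 of the unadjusted limma p on the vertical axis. The 255 genes that rose (red) and the 555 that fell (blue) passed an adjusted p of 0.05, and labels mark genes described in the text.

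The largest increases joined an inhibitor of the cell cycle, a feedback inhibitor of cytokine signalling, a hormone of iron handling and theta globin. Adgrg2, an adhesion G protein-coupled receptor, read 6.91, 7.72 and 7.19 in deficient cells, against 4.50, 4.63 and 4.33 in adequate cells, a rise of 2.79 (SE 0.24, adjusted p = 2.50e-04). Cdkn1a, the gene of the cell cycle brake p21, was far more variable. It read 10.43, 8.16 and 9.72 in deficient cells, against 6.67, 6.59 and 6.76 in adequate cells (2.76, SE 0.57, adjusted p = 0.0178). All deficient arrays lay above all adequate arrays for both genes, but the deficient spread of Cdkn1a was wide. Rragd, a Rag GTPase that reports amino acids to mTORC1, read 8.62, 8.23 and 8.69, against 5.91, 6.32 and 6.63 (2.23, adjusted p = 0.00169). Erfe, the erythroblast hormone that lowers hepcidin, read 9.52, 9.84 and 9.63, against 7.94, 7.94 and 7.05 (2.02, adjusted p = 0.0347). The remaining genes among the 15 largest increases were Ttc39aos1 (3.65), the odorant receptor gene Olfr67 (3.26), Ankrd36 (2.43), Hbq1b (2.25) and Hbq1a (2.19), which are copies of theta globin, Cish (2.18), the linker histone gene H1f2 (2.16), Cdc25b (2.12), the calcium channel subunit gene Cacna1c (2.03), Cdkl1 (2.03) and the formin-like gene Fhdc1 (1.98). Olfr67 moved from a level near the background, with 3.71, 3.21 and 2.99 in adequate cells. The calls of Cdkn1a, Erfe, Olfr67, H1f2 and Cacna1c ended when single arrays were left out. Their adjusted p then reached 0.087, 0.129, 0.0627, 0.0637 and 0.0502, without deficient replicate 3 for Cdkn1a and Cacna1c, without deficient replicate 2 for Erfe and Olfr67, and without adequate replicate 2 for H1f2.

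Among the largest decreases were cell surface and matrix genes, a creatine enzyme and both selenium-binding protein genes. Sh2d4a, an SH2 domain adaptor, read 5.75, 5.32 and 5.23 in deficient cells, against 8.65, 8.37 and 8.10 in adequate cells, and fell by 2.94 (SE 0.20, adjusted p = 3.47e-05). Gatm, which makes the creatine precursor guanidinoacetate, read 7.61, 6.32 and 6.79, against 9.89, 9.79 and 9.54, and fell by 2.83 (SE 0.32, adjusted p = 9.60e-04). No deficient array reached the lowest adequate array for either gene. Itga5, the fibronectin receptor subunit, read 7.27, 7.31 and 7.05, against 9.16, 9.21 and 8.73 (-1.82, adjusted p = 2.55e-04). The heparan sulfate proteoglycan gene Gpc4 (-1.93), the secreted WNT antagonist gene Sfrp4 (-1.93), Adgrg7 (-1.91), Tspan31 (-1.80) and the secreted protein gene C1qtnf12 (-1.75) also fell. Mettl8 (-2.42), Hsph1 (-2.12), Gdpd1 (-1.87), Kit (-2.18) and Myb (-2.06) are taken up with their families. Selenbp1, which binds selenium and oxidises methanethiol, read 8.49, 7.32 and 8.04, against 9.93, 9.75 and 9.49 (-1.77, adjusted p = 0.0134). Its close paralog Selenbp2 read 7.83, 6.74 and 7.43, against 9.32, 9.14 and 8.81 (-1.76, adjusted p = 0.0113), and probes for these near-identical genes may share transcripts. Neither gene encodes a selenocysteine protein. Without adequate replicate 1 the adjusted p was 0.0705 for Selenbp1 and 0.0624 for Selenbp2.

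**Figure D2:**
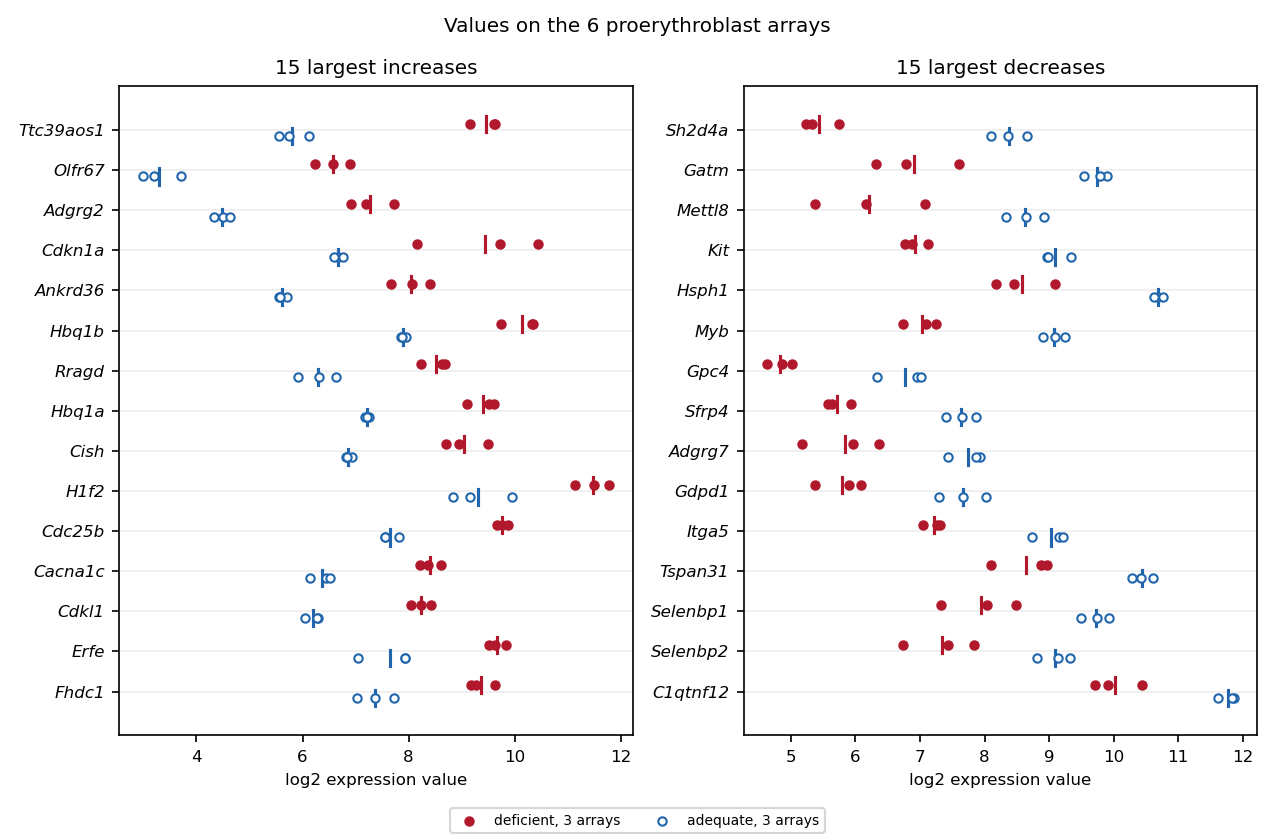
Log2 expression of the 15 named genes with the largest increases (left) and the 15 with the largest decreases (right), 1 point per proerythroblast array. Filled red points are the 3 deficient arrays, open blue points the 3 adequate arrays, and short vertical lines the group means, and the rule for naming required that the 2 groups did not overlap.

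The transcription factor genes that changed fell more often than they rose. Of 701 tested members of 15 factor families, 5 rose (0.713%) and 30 fell (4.28%). Without the ZFP zinc finger genes, 4 of 389 rose (1.03%) and 14 fell (3.6%), and the median difference was 0.02. The shares over all genes were 1.27% higher and 2.76% lower, so these counts lay near the background. Of the 389, 24 rose and 30 fell with the proerythroblast arrays alone, where 5.47% of all genes rose and 6.53% fell. By separation of the arrays alone 53 lay higher and 57 lower, against 15.5% and 15.6% of all genes. E2f2, an activator E2F that drives S phase genes in erythroblasts, read 10.84, 11.20 and 10.95 in deficient cells, against 9.08, 9.26 and 8.96 in adequate cells. It rose by 1.90 (SE 0.14, adjusted p = 4.67e-05). Mxd1, a MAX partner that opposes MYC, read 10.52, 10.20 and 10.39, against 9.12, 9.31 and 9.13 (1.18, adjusted p = 8.60e-04). Both groups were tight and well apart for these genes. Sox6, a factor of late erythroid maturation, read 10.34, 9.95 and 10.17, against 9.19, 9.20 and 8.85 (1.07, adjusted p = 0.00857), and Nfe2, the globin locus bZIP factor, rose by 1.21 (adjusted p = 0.0177).

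The factor genes that fell came from several families. Nfia, a nuclear factor I gene, read 7.70, 7.37 and 7.32 in deficient cells, against 9.29, 9.32 and 8.81 in adequate cells (-1.68, SE 0.17, adjusted p = 6.36e-04). Myb, which keeps progenitors dividing, read 7.09, 6.74 and 7.25, against 8.91, 9.25 and 9.09 (-2.06). Creb3l2, a membrane-bound bZIP factor of the secretory pathway, fell by 0.96 (adjusted p = 0.00538). Sox4 read 5.98, 5.99 and 6.04, against 7.0, 6.69 and 6.97 (-0.88, adjusted p = 0.00391). These 4 genes, E2f2, Mxd1 and Sox6 passed whichever array was left out. The other 11 genes did not. They were Nfe2, the pocket protein gene Rbl2 (-0.75), Zbtb46 (-0.82), Zbtb34 (-0.54), the thyroid hormone receptor gene Thra (-0.73), Nr2c1 (-0.62), the interferon regulator gene Irf3 (-0.70), Pbx2 (-0.70), Mrtfb (-0.54), and 2 partners of the GATA1 complex, Ldb1 (-0.72) and the corepressor gene Cbfa2t3 (-0.54). The highest adjusted p among them was 0.198, for Nr2c1 without adequate replicate 1, and the lowest such maximum 0.059, for Zbtb46 without adequate replicate 2. Ldb1 read 8.65, 8.61 and 8.57 in deficient cells, against 9.41, 9.38 and 9.21 in adequate cells, so its groups were narrow as well as apart.

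**Figure D3:**
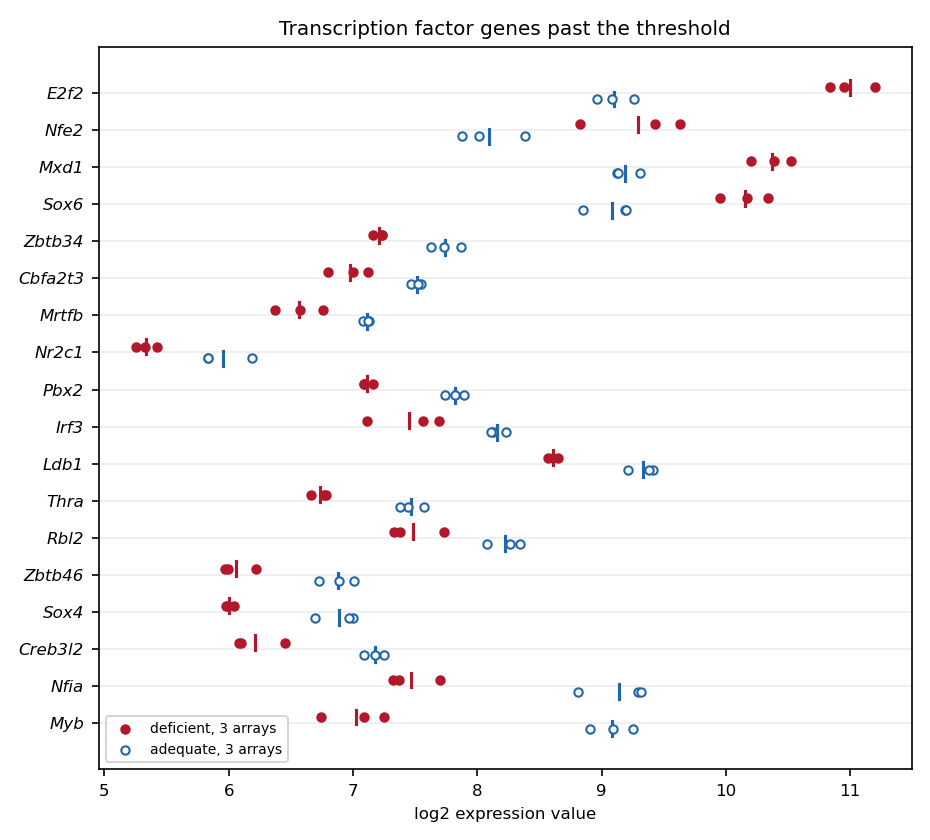
Log2 expression of the 18 transcription factor genes outside the ZFP family that passed an adjusted p of 0.05, 1 point per array (filled red, deficient; open blue, adequate) with lines at the group means. E2f2, Nfe2, Mxd1 and Sox6 lie higher in deficient cells and the other 14 lower.

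Several families held no member that passed. None of 22 KLF and SP, 22 ETS, 22 FOX and 14 RUNX, IKAROS, GFI and BCL11 factors passed by limma, and 1, 0, 2 and 3 of them had an unadjusted p under 0.05. With the proerythroblast arrays alone 2 KLF and SP genes rose, 1 FOX gene fell, and 1 gene rose and 1 fell in the RUNX, IKAROS, GFI and BCL11 list. In that fit 5.47% of all genes rose and 6.53% fell. The nearest in the 12-array fit were Klf11 (0.82, adjusted p = 0.14), Foxk1 (-0.39, adjusted p = 0.15) and Bcl11a, a repressor of fetal globin. All of these passed with the proerythroblast arrays alone (adjusted p = 0.0423, 0.0181 and 0.0227). With the block within each stage Klf11 (0.00743) and Bcl11a (0.00715) passed and Foxk1 (0.0593) did not. Bcl11a read 8.44, 7.60 and 8.01 in deficient cells, against 9.02, 9.37 and 9.01 in adequate cells, which did not overlap, and its adjusted p was 0.0704 in the 12-array fit. Among 312 ZFP genes, most of which encode KRAB-type or other C2H2 zinc finger proteins of unknown target, 16 fell and Zfp112 rose (0.72, adjusted p = 0.0388). These were 5.13% and 0.321% of the list, against 2.76% lower and 1.27% higher over all genes. The decreases were small, between -0.47 (Zfp846) and -1.24 (Zfp976). Zfp931 read 5.44, 5.27 and 5.47, against 6.50, 6.70 and 6.45 (-1.16, adjusted p = 0.00106). Zfp251 (-1.08), Zfp975 (-0.85), Zfp637 (-0.86), Zfp239 (-0.76), Zfp976 and Zfp931 fell whichever array was left out, and Zfp112 did not keep its call (adjusted p = 0.18 without adequate replicate 2). The remaining 10 were Zfp141, Zfp273, Zfp563, Zfp60, Zfp605, Zfp704, Zfp780b, Zfp831, Zfp84 and Zfp846. Chromosome 7, which carries many of these genes in clusters, held 6 of the 16 that fell among 82 tested there.

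Genes of chromatin changed in small numbers. Of 56 histone methyltransferases and demethylases, 1 rose (1.79%) and 5 fell (8.93%), against 1.27% and 2.76% of all genes. Kdm7a, a demethylase of repressive marks, rose by 1.09 (adjusted p = 0.0042), and Kdm5b, which removes methyl groups from H3K4, fell by 0.93 (adjusted p = 0.00696). Of 35 Polycomb members 3 fell (8.57%), Scml2 (-0.92), Jarid2 (-0.66) and Pcgf6 (-0.69). Of 41 SWI/SNF and other remodellers 2 fell (4.88%), Chd9 (-0.67) and Smarca2 (-0.48). Kdm7a, Kdm5b and Scml2 passed whichever array was left out. Jarid2, Pcgf6, Chd9 and Smarca2 did not, with adjusted p up to 0.158, 0.179, 0.121 and 0.168, without deficient replicate 2 for Pcgf6 and without adequate replicate 1 for the others.

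The cell cycle genes moved in both directions, where 1.27% of all genes rose and 2.76% fell. Cdc25b, the phosphatase that activates CDK1 at mitotic entry, read 9.66, 9.88 and 9.76 in deficient cells, against 7.56, 7.56 and 7.81 in adequate cells. It rose by 2.12 (SE 0.15, adjusted p = 4.67e-05). Of 42 cyclins, cyclin-dependent kinases and regulators, it alone rose, and Cdk5 (-1.41), Cdk10 (-1.26) and the progenitor kinase gene Cdk6 (-1.36) fell, and all 4 passed whichever array was left out. Fzr1, the CDH1 activator of the anaphase-promoting complex, read 10.11, 10.13 and 10.18, against 8.96, 9.15 and 9.03 (1.09, adjusted p = 8.77e-04). No other member of the 49 kinetochore and spindle checkpoint genes passed in the 12-array fit. With the proerythroblast arrays alone 11 of the 49 rose and none fell, and without replicate 2 of both basophilic groups 14 rose and none fell, where 5.47% and 6.97% of all genes rose. With the replicate block within each stage 3 rose, where 4.04% of all genes rose. Of 8 CDK inhibitor genes 2 rose, Cdkn1a and Cdkn2d (1.44, adjusted p = 0.0282), the INK4-type inhibitor p19, and neither kept its call when deficient replicate 3 was left out (0.087 and 0.128). Esco2, the cohesin acetyltransferase of S phase, rose by 0.59 (adjusted p = 0.0192, and 0.0961 without deficient replicate 3), as the only 1 of 25 condensin and cohesin genes. Of these 25, 7 rose with the proerythroblast arrays alone, without replicate 2 of both basophilic groups 9, and with the block within each stage 1, and none fell in any of these fits. Of 36 Fanconi and homologous recombination genes 3 fell, the damage kinase genes Atm (-1.18) and Atr (-0.83) and Rad52 (-1.15). Atr lost its call without adequate replicate 2 (0.0689).

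Among cytokine and growth factor signalling genes, the receptor gene Kit and several kinase and phosphatase genes fell, while Cish and Pim1, known targets of STAT5, rose. Kit, the receptor for stem cell factor, read 6.76, 6.88 and 7.12 in deficient cells, against 8.97, 9.34 and 8.98 in adequate cells (-2.18). No other member passed among 26 cytokine receptors or 30 receptor tyrosine kinases. Cish, which dampens STAT5 signalling downstream of the erythropoietin receptor, read 8.94, 8.70 and 9.49, against 6.94, 6.82 and 6.83 (2.18, SE 0.36, adjusted p = 0.00581). It alone rose among 13 SOCS and CISH genes, where 1.27% of all genes rose and 2.76% fell. Pim1, a survival kinase, read 9.19, 9.74 and 9.63, against 7.87, 7.85 and 7.76 (1.69, adjusted p = 0.00641). Cish and Pim1 both lay higher on every deficient array than on any adequate one, and both passed whichever array was left out.

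Of 35 non-receptor tyrosine kinases and phosphatases, 5 fell and none rose. Ptpn6, which encodes SHP-1, a phosphatase that shuts off cytokine receptors, read 8.09, 7.98 and 8.26 in deficient cells, against 9.20, 9.36 and 9.44 in adequate cells (-1.22, SE 0.19, adjusted p = 0.00385). Tyk2 (-0.72) and Ptpn7 (-0.90) fell whichever array was left out, while Ptpn3 (-0.63) did not pass without adequate replicate 1 (adjusted p = 0.103). Of 31 PIM, AKT and mTOR genes, Pim1 rose and Pik3r2 (-0.89) and Inpp5d, the SHIP1 phosphatase (-0.60), fell, which did not pass without adequate replicate 2 (0.0975). Of 48 RAS and MAP kinase genes only Map3k4 fell (-0.86), and it lost its call without adequate replicate 1 (0.0523). Dusp8 rose (1.08) and Dusp19 fell (-1.46) among 22 dual-specificity phosphatases. With the proerythroblast arrays alone 7 members of the tyrosine kinase and phosphatase list fell and none rose, against 6.53% of all genes lower in that fit. With the replicate block within each stage 7 fell and 2 rose, where 7.05% of all genes fell and 4.04% rose.

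The promoter of Cish is shown because Cish is a textbook STAT5 target and the window holds the motif of that factor. The window runs from 250 bases before to 50 after the start that RefSeq lists (GRCm38.p6), 5′ to 3′ on the plus strand at chr9:107296409-107296708. Capitals mark the motif TTCNNNGAA, which reads the same on both strands.

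Cish: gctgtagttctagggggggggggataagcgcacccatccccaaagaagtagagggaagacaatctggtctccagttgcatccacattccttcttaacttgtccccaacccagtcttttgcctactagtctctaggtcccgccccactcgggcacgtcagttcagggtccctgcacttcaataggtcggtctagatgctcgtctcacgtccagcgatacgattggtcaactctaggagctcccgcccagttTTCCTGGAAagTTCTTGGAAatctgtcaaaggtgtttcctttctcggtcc

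The motif stood 2 times in this window, at bases 251 and 262. It was present in 8.30% of 32851 promoters, in 10.3% of 261 promoters of genes that rose and in 7.18% of 585 promoters of genes that fell. The letters describe the window and were not tested as a site.

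Surface receptor families changed through single members, where 1.27% of all genes rose and 2.76% fell. Adgrg2 rose and Adgrl2 (-1.20, adjusted p = 0.00152) and Adgrg7 fell among 15 adhesion G protein-coupled receptors, all 3 whichever array was left out. Of 23 TNF receptor genes, Eda2r, a known p53 target, rose (1.11, adjusted p = 0.00341). The feature used for Fas passed too (0.75, adjusted p = 0.0117), but its name places it on chromosome 17, whereas Fas lies on chromosome 19, so it may not measure the gene. The feature for Fas on chromosome 19 read 4.71, 4.66 and 4.56 in deficient cells, against 4.33, 4.86 and 5.27 in adequate cells, and the groups overlapped. Among 23 tetraspanins, Tspan33, an erythroid tetraspanin, rose by 0.92 and Tspan14 by 1.64, and Tspan31 fell. The call of Tspan14 ended without deficient replicate 2 (0.179). Of 31 NOTCH genes 4 fell (12.9%, against 2.76% of all genes) and none rose. Those were the gamma-secretase gene Psen2 (-0.57), the glycosyltransferase genes Lfng (-0.59) and Rfng (-0.70), and Dtx3 (-0.64). None of the 4 kept its call in every leave-one-out fit, with the highest adjusted p at 0.207 for Dtx3 without adequate replicate 2. Neither the 44 WNT genes, where Sfrp4 alone fell, nor the 21 chemokine and purinergic receptors, where none passed and 2 had an unadjusted p under 0.05, showed a wider change. Cxcr4, the receptor that holds progenitors in place, read 10.92, 10.87 and 10.86, against 10.09, 9.82 and 9.97, with an adjusted p of 0.284 in the 12-array fit. By limma it passed with the proerythroblast arrays alone (adjusted p = 0.00306) and with the block within each stage (0.0133).

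A minority of the fatty acid genes fell. Of 36 genes of fatty acid synthesis and oxidation, 8 fell (22.2%, against 2.76% of all genes), none rose and 28 did not pass, and the median difference was -0.32, against 0.017 over all genes. Decr1, the mitochondrial reductase needed to oxidise polyunsaturated fatty acids, read 6.66, 6.25 and 6.43 in deficient cells, against 8.09, 7.78 and 7.80 in adequate cells. It fell by 1.44 (SE 0.14, adjusted p = 3.59e-04). Fads3, a desaturase family member, read 8.21, 7.92 and 7.73, against 9.48, 9.26 and 8.84 (-1.24, adjusted p = 0.00308). Eci1, the isomerase that lets unsaturated chains enter beta oxidation, fell by 0.97 (adjusted p = 0.00737). The gap between the groups of Decr1 was wider than the range within either group. The other 5 were the acyl-CoA synthetase gene Acsl6 (-0.79), the elongase gene Elovl6 (-0.77), the beta oxidation genes Echs1 (-0.66) and Acadm (-0.59), and the synthesis gene Acaca (-0.59). Decr1, Fads3 and Eci1 passed whichever array was left out, and the other 5 did not. The number of members past the threshold ran from 3 to 13 over the leave-one-out fits, and was 7 without adequate replicate 3. It was 14, all lower, with the proerythroblast arrays alone, and 15, all lower, without replicate 2 of both basophilic groups. The corresponding shares of all genes lower were 6.53% and 9.37%. With the replicate block within each stage 15 fell and 1 rose, where 7.05% of all genes fell and 4.04% rose. By separation of the arrays alone 3 of the 36 lay higher and 19 lower, against 15.5% and 15.6% of all genes.

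The lipid and mitochondrial genes around this list were mixed, where 2.76% of all genes fell and 1.27% rose. Of 52 phospholipid and sphingolipid enzymes 3 fell, Gdpd1, the phosphatidate phosphatase gene Lpin1 (-1.22) and Agpat1 (-0.78, and adjusted p = 0.15 without adequate replicate 2). Of 43 mitochondrial carriers 3 rose and 2 fell. Slc25a1, which exports citrate for fatty acid synthesis, read 8.49, 8.23 and 8.32 in deficient cells, against 9.61, 9.50 and 9.40 in adequate cells (-1.16, adjusted p = 0.0014). Slc25a37, mitoferrin 1, which brings iron to the heme pathway, read 12.09, 11.96 and 12.19, against 10.76, 10.89 and 10.73 (1.29, adjusted p = 2.55e-04). Slc25a39, the mitochondrial glutathione carrier, rose by 1.00 and Slc25a30 fell by 0.76, and these 2 lost their calls without deficient replicate 3 (0.0675) and without deficient replicate 2 (0.0657). Of 33 TCA cycle genes, Pcx, pyruvate carboxylase (1.06, adjusted p = 0.00273), and Me1, malic enzyme (0.66, adjusted p = 0.0168), rose and Pdp2 fell (-0.85), with a list median of -0.32. More TCA cycle genes fell in other fits. There were 2 higher and 5 lower with the proerythroblast arrays alone, and with the block within each stage 2 rose and 9 fell, and without replicate 2 of both basophilic groups 2 rose and 12 fell. Over all genes 5.47%, 4.04% and 6.97% rose and 6.53%, 7.05% and 9.37% fell in these fits. By separation of the arrays alone 3 of the 33 lay higher and 17 lower, against 15.5% and 15.6% of all genes. Me1 did not pass without deficient replicate 3 (0.099), nor Pdp2 without adequate replicate 1 (0.0624). Of 31 ABC transporters, Abcg2, the porphyrin exporter, rose by 1.39 and Abca4 by 0.60, while Abcd3 (-0.54) and Abcb8 (-0.56) fell. None of these 4 calls held in every leave-one-out fit, with adjusted p up to 0.143 (Abcg2, without deficient replicate 3) and 0.199 (Abcb8, without adequate replicate 2).

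**Figure D4:**
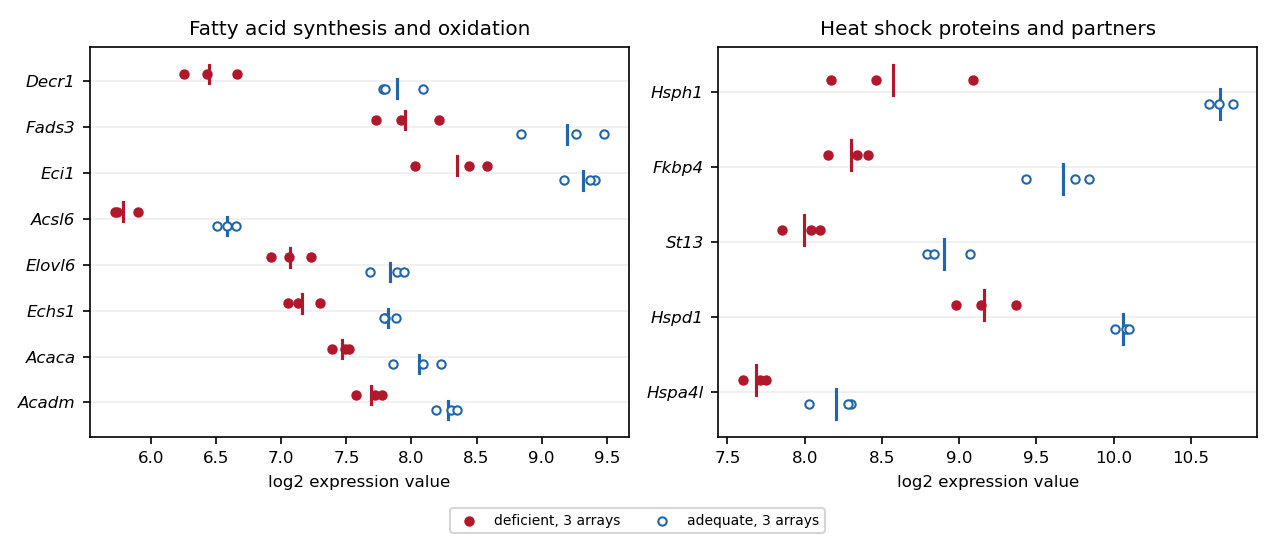
Log2 expression of the 8 fatty acid genes (left) and the 5 heat shock genes (right) that passed an adjusted p of 0.05, 1 point per array (filled red, deficient; open blue, adequate) with lines at the group means. In each of the 13 genes all deficient arrays lie below all adequate arrays.

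Amino acid and nitrogen metabolism changed at a few steps, where 1.27% of all genes rose and 2.76% fell. Slc6a9, the glycine transporter that feeds heme synthesis, read 10.84, 10.73 and 10.82 in deficient cells, against 9.01, 9.24 and 9.03 in adequate cells, and rose by 1.70 (SE 0.19, adjusted p = 8.47e-04). Slc7a7, a transporter of basic amino acids, fell by 1.17 (adjusted p = 0.00581). No other member of 27 amino acid transporters passed. Of 18 creatine, arginine and polyamine genes 2 rose and 3 fell. Azin1, an antizyme inhibitor that spares ornithine decarboxylase, read 9.68, 9.83 and 9.63, against 8.67, 8.63 and 8.51 (1.11, adjusted p = 8.55e-04). Oat, ornithine aminotransferase, read 8.62, 8.69 and 8.51, against 9.86, 9.55 and 9.74 (-1.11, adjusted p = 0.00247). Srm, spermidine synthase, fell by 0.83 (adjusted p = 0.01, and 0.0627 without deficient replicate 3). In one-carbon metabolism the cytosolic gene Mthfd1 read 10.16, 9.50 and 9.72, against 11.18, 11.58 and 10.95 (-1.44, adjusted p = 0.0239). Its mitochondrial relative Mthfd2 read 9.82, 9.11 and 9.76, against 8.79, 8.86 and 8.87 (0.72, adjusted p = 0.0392). The groups were apart in opposite directions for these relatives, but Mthfd1 lost its call without adequate replicate 2 (0.119), and Mthfd2 without deficient replicate 3 (0.187) and with the proerythroblast arrays alone. Cad, which starts pyrimidine synthesis, fell by 0.74 (adjusted p = 0.0244, and 0.132 without deficient replicate 3), as the only 1 of 35 nucleotide synthesis genes in the 12-array fit. The list median was -0.21. With the proerythroblast arrays alone 2 rose and 5 fell, with the block within each stage 1 and 6, and without replicate 2 of both basophilic groups 2 and 10. Over all genes 5.47%, 4.04% and 6.97% rose and 6.53%, 7.05% and 9.37% fell in these fits. By separation of the arrays alone 3 of the 35 lay higher and 15 lower, against 15.5% and 15.6% of all genes.

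Nutrient sensing and metal transport also changed. Of 25 Rag GTPase and lysosomal nutrient sensing genes, Rragd rose (4%, against 1.27% of all genes) and 3 fell (12%, against 2.76%). Nprl2, a subunit of GATOR1, which restrains mTORC1, read 6.84, 6.19 and 6.77 in deficient cells, against 8.21, 8.30 and 8.02 in adequate cells (-1.58, SE 0.18, adjusted p = 0.001). Wdr59, a GATOR2 subunit, fell by 0.92 (adjusted p = 0.00581), and Lamtor2, a subunit of the Ragulator anchor, by 0.77 (adjusted p = 0.03, and 0.146 without deficient replicate 3). Of 39 lysosomal hydrolases and membrane proteins 4 fell (10.3%, against 2.76% of all genes), with a list median of -0.23. They were Gusb (-0.83), Scarb2 (-0.75), Ctsl (-0.59) and Npc2 (-0.53). Each of these 4 lost its call in some leave-one-out fit, with adjusted p from 0.0638 (Gusb, without adequate replicate 2) to 0.221 (Ctsl, without adequate replicate 1). Of 24 zinc, copper and manganese transporters 3 fell (12.5%, against 2.76% of all genes) and none rose, all whichever array was left out. The copper exporter gene Atp7b read 7.91, 7.19 and 7.55, against 9.28, 9.17 and 8.81 (-1.54, adjusted p = 0.00169). The paired zinc importer genes Slc39a10 (-1.20) and Slc39a6 (-0.96) both had an adjusted p of 0.00549.

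A minority of the heat shock genes passed the threshold in the 12-array fit, and those that passed fell. Of 39 tested HSP70, HSP90, HSP110 and small heat shock genes and their partners, 5 fell (12.8%, against 2.76% of all genes), 34 did not pass and none rose in the 12-array fit, with a list median of -0.27. Hsph1, the HSP110 exchange factor of HSP70, read 9.09, 8.17 and 8.46 in deficient cells, against 10.68, 10.77 and 10.62 in adequate cells, and fell by 2.12 (SE 0.20, adjusted p = 2.55e-04). Fkbp4, an HSP90 co-chaperone, read 8.41, 8.15 and 8.34, against 9.75, 9.84 and 9.43 (-1.37, adjusted p = 8.95e-04). St13, which links HSP70 to HSP90, read 8.10, 7.85 and 8.04, against 9.07, 8.79 and 8.84 (-0.90, adjusted p = 0.00241). The deficient arrays of all 3 genes lay below every adequate array, and these calls held whichever array was left out. Hspd1, the mitochondrial chaperonin HSP60, fell by 0.90 (adjusted p = 0.0129) and Hspa4l by 0.52 (adjusted p = 0.0484). Both lost their calls in some leave-one-out fits, Hspd1 up to 0.0765 without deficient replicate 3. The heat shock list had 3 to 11 members past the threshold over those fits and 4 without adequate replicate 3. With the proerythroblast arrays alone 12 fell and 1 rose, without replicate 2 of both basophilic groups 16 fell and 2 rose, and with the block within each stage 13 fell and 2 rose. Over all genes 6.53%, 9.37% and 7.05% fell and 5.47%, 6.97% and 4.04% rose in these fits. By separation of the arrays alone 3 of the 39 lay higher and 20 lower, against 15.5% and 15.6% of all genes. Of 39 DNAJ co-chaperones, Dnajb2 rose (0.76) and Dnaja3 (-0.88) and Dnajc18 (-0.54) fell, and Dnajb2 alone kept its call throughout the leave-one-out fits.

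The promoters of Hsph1 and Hspd1 are shown because both genes fell and both windows hold paired heat shock elements. The windows are from RefSeq (GRCm38.p6), 250 bases before to 50 after a listed start, 5′ to 3′ on the minus strand, at chr5:149636287-149636586 and chr1:55087883-55088182. RefSeq lists 2 promoters for each of these genes, and 1 that holds the motif is printed. Capitals mark GAANNTTC or TTCNNGAA, searched on both strands, and overlapping matches run together.

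Hsph1: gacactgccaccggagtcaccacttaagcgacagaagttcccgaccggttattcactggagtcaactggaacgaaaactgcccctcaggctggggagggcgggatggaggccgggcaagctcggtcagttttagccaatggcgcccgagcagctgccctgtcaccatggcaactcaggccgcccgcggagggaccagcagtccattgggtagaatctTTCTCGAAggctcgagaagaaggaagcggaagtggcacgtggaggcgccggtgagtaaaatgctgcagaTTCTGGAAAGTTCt
Hspd1: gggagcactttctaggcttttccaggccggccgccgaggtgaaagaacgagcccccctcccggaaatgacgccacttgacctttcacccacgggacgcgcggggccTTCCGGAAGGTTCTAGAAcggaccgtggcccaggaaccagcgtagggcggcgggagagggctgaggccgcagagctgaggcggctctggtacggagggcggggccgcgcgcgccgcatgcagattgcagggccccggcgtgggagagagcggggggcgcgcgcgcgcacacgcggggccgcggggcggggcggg

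The Hsph1 window held 3 matches, at bases 218, 287 and 292, and the Hspd1 window 3, at bases 107, 112 and 117. Of 30 heat shock list genes with a listed promoter, 11 held the motif, among them 3 of the 4 that fell and had a listed promoter. A gene was counted when any of its listed promoters held the motif. Over all 32851 promoters the share was 15.1%, with 10.8% of promoters of genes that fell and 13.4% of those that rose. These shares count single windows, so the gene counts cannot be compared with them directly.

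In 2 families of ubiquitin genes more members rose than fell. Of 128 TRIM, MARCH and RNF ubiquitin ligases 9 rose (7.03%, against 1.27% of all genes) and 2 fell (1.56%, against 2.76%). Rnf11 read 8.19, 8.12 and 8.32 in deficient cells, against 6.60, 6.70 and 6.65 in adequate cells (1.56, SE 0.20, adjusted p = 0.00166). Marchf3 read 8.70, 8.60 and 8.60, against 7.45, 7.63 and 7.42 (1.13, adjusted p = 8.47e-04). Marchf2 rose by 1.02 and the mitochondrial ligase gene Marchf5 by 0.72. These 4 genes kept their calls whichever array was left out, and the other 7 did not. Of 28 ubiquitin-conjugating enzymes 3 rose (10.7%) and none fell. Ube2l6, which conjugates ISG15 and ubiquitin, read 10.44, 10.16 and 10.66, against 9.05, 9.20 and 9.22 (1.26, adjusted p = 0.00492). Ube2o, which clears ribosomes in reticulocytes, and Ube2h rose by 1.39 and 1.16, and their adjusted p reached 0.0748 and 0.0992 without adequate replicate 1. The ubiquitin ligase list had 4 to 18 members past the threshold over the leave-one-out fits. With the proerythroblast arrays alone 15 of its members rose and 6 fell, where 5.47% of all genes rose. Usp32 rose (0.91) and Usp11 fell (-1.02) among 41 ubiquitin-specific peptidases, and Usp11 lost its call without deficient replicate 3 (0.141).

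Most RNA modification and processing genes did not pass, and in 4 of the 5 lists described here more members fell than rose. Of 56 METTL, NSUN and other RNA methyltransferases and demethylases, 7 fell (12.5%) and Mettl27 rose (0.64), with a list median of -0.22. The shares over all genes were 2.76% lower and 1.27% higher. Mettl8, a mitochondrial tRNA methyltransferase, read 7.08, 5.38 and 6.17 in deficient cells, against 8.64, 8.92 and 8.34 in adequate cells (-2.42, SE 0.33, adjusted p = 0.00241). Alkbh7, a mitochondrial AlkB family protein, read 7.23, 6.54 and 7.02, against 8.50, 8.23 and 8.20 (-1.38, adjusted p = 0.00241), and Trmt1l fell by 1.15 (adjusted p = 0.00318). These 3 kept their calls in all leave-one-out fits and the other 5 members did not, Mettl27 among them (0.139, without deficient replicate 3). Of 25 RNA polymerase subunits 2 fell, Polr1b (-0.75) and Polr3b (-0.78), with a list median of -0.28. Of 37 exosome and RNA decay genes 2 fell, Exosc3 (-0.90) and Exosc7 (-0.98), and of 46 DEAD and DEAH box helicases 2 fell, Ddx11 (-0.94) and Dhx33 (-0.60). All 6 lost their calls in some leave-one-out fits, with adjusted p up to 0.166 (Polr3b, without adequate replicate 1). More RNA polymerase genes fell in other fits. With the proerythroblast arrays alone 6 fell, with the block within each stage 10, and without replicate 2 of both basophilic groups 11. None rose, and 6.53%, 7.05% and 9.37% of all genes fell there. By separation of the arrays alone 2 of the 25 lay higher and 12 lower, against 15.5% and 15.6% of all genes. With the block 14 methyltransferase and demethylase genes fell and 1 rose, and 8 helicase genes fell and 1 rose. Ranbp10, which binds tubulin and RAN, rose by 1.21 (adjusted p = 0.001) among 48 importins, exportins and nucleoporins. In the same list the exportin gene Xpo7 rose by 1.02 (adjusted p = 0.0343) and the importin gene Ipo8 fell by 0.63 (adjusted p = 0.0288), and both lost their calls without deficient replicate 3 (0.142 and 0.152).

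**Figure D5:**
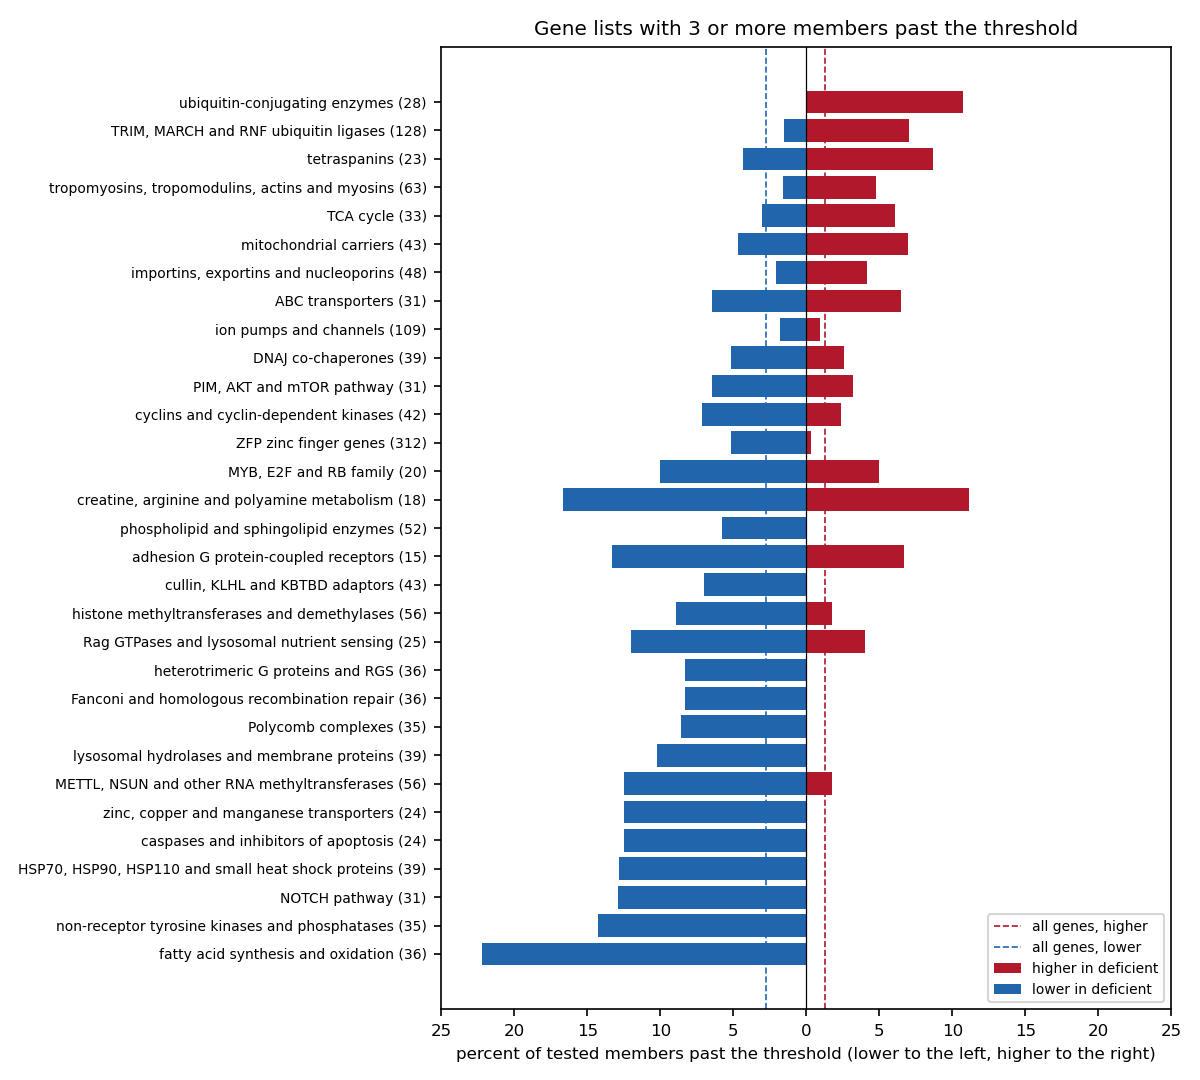
Percent of the tested members (number in brackets) that rose (red, to the right) or fell (blue, to the left) in deficient proerythroblasts, for the 31 lists with 3 or more members past the threshold, ordered by the difference. Dashed lines mark the shares over all genes, 1.27% higher and 2.76% lower.

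A few further families had scattered changes, to be read beside 2.76% lower and 1.27% higher over all genes. Of 36 heterotrimeric G protein and RGS genes 3 fell, Gna12 (-0.66), Gnb4 (-0.73) and Gna15 (-0.52), and none of these calls held in every leave-one-out fit, with adjusted p up to 0.171 (Gna15, without adequate replicate 1). Of 43 cullin, KLHL and KBTBD adaptors 3 fell, Klhl23 (-1.04), Klhl9 (-0.88) and Klhl22 (-0.62), and Klhl23 alone kept its call. Of 109 ion pumps and channels, Trpv5, a calcium channel gene, rose by 1.07, and Trpv2 (-1.10) and the sodium, potassium and chloride cotransporter gene Slc12a2 (-0.61) fell. Trpv2 passed whichever array was left out, Trpv5 reached 0.0677 without adequate replicate 2, and Slc12a2 0.092 without adequate replicate 1. Rab4a, a GTPase of early endosome recycling, read 7.35, 7.88 and 7.42 in deficient cells, against 8.39, 8.73 and 8.49 in adequate cells (-0.99, adjusted p = 0.00601). It kept its call in all leave-one-out fits, and Rab29 (-0.60) did not, as the other gene of 54 RAB GTPases that fell (0.119, without adequate replicate 1).

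Cytoskeleton and cell death genes changed singly, where 1.27% of all genes rose and 2.76% fell. Tmod1, which caps the short actin filaments of the red cell skeleton, read 9.54, 9.54 and 9.67 in deficient cells, against 7.89, 7.81 and 7.69 in adequate cells (1.79, SE 0.12, adjusted p = 3.47e-05). Of 63 tropomyosin, tropomodulin, actin and myosin genes, Tmod1, Dmtn (0.94) and Myo10 (0.78) rose and Myo1d fell (-0.70), and Tmod1 alone kept its call in every leave-one-out fit. Septin4 fell by 0.99 (adjusted p = 0.00436). Bcl2l1, which encodes the erythroid survival protein BCL-XL, read 9.12, 8.94 and 9.26, against 7.48, 7.82 and 8.06 (1.32, SE 0.17, adjusted p = 0.00169). Bid, a promoter of mitochondrial apoptosis, read 7.23, 6.98 and 7.02, against 8.11, 8.05 and 7.96 (-0.96, adjusted p = 0.00112). No other member of the 23 BCL2 family genes passed, and both calls held whichever array was left out. Of 24 caspases and inhibitors of apoptosis 3 fell (12.5%, against 2.76% of all genes), Casp6 (-1.32), Casp8 (-0.74) and the adaptor gene Fadd (-0.65). Casp6 passed in all leave-one-out fits, Casp8 reached 0.0874 without adequate replicate 1, and Fadd 0.128 without deficient replicate 3. In these sorted populations fewer cells of a type and less RNA per cell cannot be told apart.

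The diet effect was then set against the same contrast in basophilic erythroblasts. The effects differed for 61 genes (0.303%), 29 with a higher and 32 with a lower effect in proerythroblasts, and 1842 had an unadjusted p under 0.05 (9.15%). Of the 61, 60 also passed in proerythroblasts. None passed in basophilic erythroblasts by limma, where 4 of all genes did (0.0199%), and 12 of the 61 had an unadjusted p under 0.05 there, as did 6.48% of all genes. E2f2 rose by 1.90 in proerythroblasts, against a difference of 0.31 in basophilic erythroblasts (adjusted p of the stage difference 0.00878). Cdc25b differed by 2.12 and by 0.01 (0.0051), and Itga5 by -1.82 and by -0.07 (0.0158). Decr1 (-1.44 and -0.16) and Hsph1 (-2.12 and -0.39) differed between the stages as well, with adjusted p of 0.0338 and 0.037. Other genes with large proerythroblast changes had differences of the same sign at both stages, such as Gpc4 (-1.93 and -1.31), C1qtnf12 (-1.75 and -1.37), Ankrd36 (2.43 and 1.92) and Cacna1c (2.03 and 1.68), for which the stage difference did not pass. The count of 61 was 589 with the replicate block within each stage, 700 without replicate 2 of both basophilic groups and 23 after quantile normalization, and ran from 12 to 282 when single arrays were left out (12 without deficient basophilic replicate 1 or deficient proerythroblast replicate 3, and 282 without deficient basophilic replicate 2). Fewer passed without adequate basophilic replicate 1 (14), 2 (24) or 3 (13), or without adequate proerythroblast replicate 1 (13), 2 (15) or 3 (22). The count was 20 and 19 without deficient proerythroblast replicates 1 and 2, and 36 without deficient basophilic replicate 3.

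The changed genes were mainly protein-coding. Of 13931 protein-coding genes 206 rose and 524 fell (5.24%), whereas 21 of 1522 long noncoding RNA genes rose and 4 fell (1.64%). Of 505 microRNA genes 5 rose (0.990%, against 1.27% of all genes) and none fell. Mir674 read 7.02, 7.15 and 6.92 in deficient cells, against 6.43, 6.38 and 6.22 in adequate cells (0.69, adjusted p = 0.00779), and it alone of the 5 kept its call in every leave-one-out fit. The others were Mir692-1 (0.67), Mir466f-4 (0.64), Mir669m-2 (0.58) and Mir669h (0.54), members of repeated gene families with close copies. The features used for Mir669h and Mir669m-2 lie by name on chromosomes 10 and X, whereas both genes lie on chromosome 2. The files name the gene of each feature and not the arm it measures, so no mature level was assigned.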

How the data were processed

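Expression was measured on 12 arrays, 3 per group. The authors deposited their values on a log2 scale and had used Affymetrix Expression Console, per the submitters' processing notes. The version, background correction and normalization are not given in the sources used here. The labels were used as deposited, and deficient basophilic replicate 3, which its description calls proerythroblasts but its title and cell type basophilic, was kept as basophilic and entered only the shared error and the stage difference.

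Of 72688 features, 6732 were controls, 31258 named 1 gene, 1492 several and 33206 none, and 1789 symbols were updated through the RefSeq gene table. For the 441 of 30702 genes with several features the brightest was used. For 61 of 20043 genes with both chromosomes known, the feature's name gives another chromosome than the gene's. A gene was tested when it exceeded 5.30, the median of all values, on at least 3 arrays (20128 genes). Each gene was fitted with limma 3.58.1 (R 4.3.3) with a mean per group over 12 arrays, with Benjamini-Hochberg adjustment over all genes tested, with a threshold of 0.05. Tables were prepared with python 3.11.15. The fit was tested on simulated data. The number of arrays limits the precision.

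A pairing of the samples by replicate number was inferred from the values only, and the main fit did not use it. Deviations from the group means of same-numbered arrays correlated at 0.457, 0.180 and 0.524 in proerythroblasts and at 0.717, 0.782 and 0.540 in basophilic erythroblasts. Arrays with unlike numbers ranged from -0.395 to 0.080 in proerythroblasts and from -0.760 to 0.598 in basophilic erythroblasts. Named genes were the 15 largest changes in each direction among genes past the threshold without overlap and with a gene symbol, up to 4 members of each list with the smallest adjusted p (2 where none passed), every transcription factor past the threshold, and Selenow. Named outside this rule, after their values were seen, were Gata1, Klf1, Epor, Mmp8, Csf3r, Cxcr2, Elane, Mpo, Ltf and Prtn3. So were the remaining fatty acid and heat shock genes that fell, the 5 microRNA genes that rose, and the genes under the closing observations. The members, lists and tests were chosen with earlier results of these data known, so no list count is independent support. Alternatives were other filters, median centring, quantile normalization, array weights, robust variance with a trend, the proerythroblast arrays alone, a replicate block, averaged features per gene, and leaving out arrays.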

Additional observations from a re-analysis of the deposited data

Results flagged for a closer look

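For 27 named genes the diet effect in proerythroblasts differed from that in basophilic erythroblasts by a test of the difference itself (limma, adjusted p under 0.05). Each value is the log2 diet effect in proerythroblasts minus that in basophilic erythroblasts. The higher effects in proerythroblasts were those of Adgrg2 (2.16), Fhdc1 (2.15), Cdc25b (2.11), Hbq1b (2.03), Hbq1a (1.88), Tmod1 (1.88), E2f2 (1.58), Slc6a9 (1.55), Slc25a37 (1.39), Ranbp10 (1.16), Mxd1 (1.10), Fzr1 (1.09), Esco2 (1.06), Azin1 (1.01) and Marchf3 (0.97). The lower effects were those of Sh2d4a (-2.41), Myb (-2.15), Kit (-2.13), Itga5 (-1.76), Sfrp4 (-1.76), Hsph1 (-1.73), Nfia (-1.36), Rab4a (-1.34), Decr1 (-1.28), Adgrl2 (-1.19), Zfp931 (-1.16) and Sox4 (-1.08). Hbq1a and Hbq1b, whose promoter windows match at 286 of 300 bases, are close copies and may share transcripts on the array. Replicate 2 of both basophilic groups stood apart, and without both of them 700 genes passed this test, against 61 with them.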

How the results depend on the processing

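No named call reversed in any alternative. Of 198 named calls, 93 held whichever array was left out, 142 in every other alternative and 91 in all. Calls were lost most often without adequate proerythroblast replicates 1 and 2 (97 each) and deficient proerythroblast replicate 3 (95). Quantile normalization ended 36, median centring 25, no filter 15, trended and robust variance 11, and averaging each gene's features 3. The proerythroblast arrays alone ended 2 (Mthfd2 and Xpo7) and the replicate block as 1 term over all arrays 2 (Dtx3 and Scarb2). The replicate block within each stage, which treats same-numbered arrays as pairs, ended none of the named calls and changed counts only. The number of genes changed in proerythroblasts (810) was 2233 with the block within each stage, 2416 with the proerythroblast arrays alone, 3288 without replicate 2 of both basophilic groups and 8008 with array weights. Leaving out single arrays gave 314 to 1806. The number whose effect differed between the stages (61) was 589 with that block, 700 without replicate 2 of both basophilic groups, 482 with array weights, 38 with no filter and 23 after quantile normalization. Leaving out single arrays gave 12 to 282. The cause of these moves was not tested. Signals near the background limit the differences of dim genes.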

Other observations

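Of 6 gene families outside the lists above, 5 had 3 or more members past the threshold. They were picked after their values were seen, so they carry no test as families. Of 12 tested apolipoprotein L genes 5 rose and none fell: Apol11a (1.73), Apol10a (1.57), Apol11b (1.56), Apol8 (1.48) and Apold1 (1.01). Apold1, listed by its symbol, lies on chromosome 6. The others lie on chromosome 15, and probes for related genes there may share transcripts. Leaving out deficient replicate 3 ended the calls of Apol11b (adjusted p = 0.0517), Apol8 (0.135) and Apold1 (0.167). Of the 5 GADD45 and stress-induced phosphatase subunit genes 3 rose, Ppp1r15a (1.48), Gadd45g (1.28) and Gadd45a (0.81), which did not pass without deficient replicate 3 (0.175). Of 6 tested Xlr genes, X-linked lymphocyte-regulated genes with near-identical copies, 5 fell, and probes for these copies may share transcripts. Of 8 GIMAP genes 1 fell, Gimap9 (-1.10), with a median of -0.01.

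Enzymes that break down branched-chain amino acids and propionate fell in part. Of 21 genes 5 fell, Bckdhb, Mccc2, Hibch, Pcca and Pccb, and Acadsb rose (1.26), with a median of -0.44. Single arrays left out ended the calls of Bckdhb (adjusted p = 0.151, without adequate replicate 2), Hibch (0.0792) and Pccb (0.117), both without adequate replicate 1, and Acadsb (0.163, without deficient replicate 3). Of 27 peroxisomal enzymes and peroxins 6 fell, 21 did not pass and none rose, with a median of -0.22, and Hsd17b4 (-0.85) alone of the 6 kept its call in every leave-one-out fit. Over all genes the median was 0.017, 1.27% rose and 2.76% fell.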
